A study of Mus musculus with 7 samples.

Results

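The constant region genes of antibodies and the joining chain were followed in RNA of mouse mammary tumours injected with extracellular vesicles. The members were 10 genes, chosen by symbol: the light chain genes Igkc, Iglc2 and Iglc3, the heavy chain genes Ighm, Ighg1, Ighg2b, Ighg2c, Ighg3 and Igha, and Jchain. All 10 were found among the 55487 entries of the deposited gene table. They had been picked because several of them stood higher in 1 vesicle group than with saline, so their levels in those groups are given as a description, with no test.

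The mice were BALB/c of wild-type genotype, whose age is not stated, and carried luciferase-transfected 4T1-12b(luc) cells in the mammary fat pad. 4T1 is a mammary carcinoma line derived from BALB/c mice, and these hosts have their own B cells. When tumours measured about 150 mm3, each received 6 injections of 50 µl into the tumour, 1 every other day, and the samples are labelled day 12. In the TIS sEV group (3 libraries) the injected material was small extracellular vesicles from 4T1 cells made senescent with nocodazole, a microtubule drug, at 100 ng/ml. In the Cont sEV group (1 library) the vesicles came from 4T1 cells given the solvent DMSO. In the saline group (3 libraries) no vesicles were given. Donor cells were treated for 72 h and then released for 72 h into medium with 5% exosome-free serum, and vesicles were collected by differential centrifugation. Total RNA of the primary tumour was sequenced. Replicates carry numbers in the labels, but separate animals are not mentioned, so every spread and p-value covers only the variation between these libraries, which may be technical.

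An antibody consists of paired heavy and light chains. In each B cell a variable segment is joined to the constant region of 1 light chain type, kappa (Igkc) or lambda (the Iglc genes), and to a heavy chain constant region. Naive B cells use Ighm, for IgM, and class switching replaces it with a downstream gene for IgG, IgE or IgA. Plasma cells secrete antibody and hold large amounts of these mRNAs. The joining chain, Jchain, links IgM and IgA units into polymers. Mice use mostly kappa light chains.

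Levels are TPM (transcript abundance corrected for length and set to a fixed total per library), divided by the summed TPM of the nuclear protein-coding genes of the library and multiplied by 1000000, called scaled TPM. This removes differences in ribosomal and mitochondrial RNA between libraries. Nuclear protein-coding genes held 28.6% of TPM in TIS sEV replicate 2, against 56.8% to 74.7% in the other 6 libraries. Nuclear ribosomal RNA held 22.9% of TPM in that library, against 0.807% to 2.40%, and 8909 genes reached 1 TPM there, against 11378 to 12328. Differences of the members that rest on it are therefore also given without it. TPM keeps no read depth, so a value of 0 means only that the gene is listed at 0. The epithelial genes Krt8 and Krt18, keratins of the tumour cells, were abundant in all 7 libraries, with Krt18 at 899.9 to 1907 with TIS sEV, 1726 with Cont sEV and 1258 to 2836 with saline.

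Summed over the 10 genes, immunoglobulin mRNA stood at 64.2, 648 and 169 scaled TPM in the TIS sEV libraries, 64.1 in the Cont sEV library and 7.44, 20.4 and 4.01 in the saline libraries. The lowest TIS sEV value lay above the highest saline value, and the Cont sEV value was next to that of TIS sEV replicate 1. The mean was 294 ± 311 scaled TPM with TIS sEV and 10.6 ± 8.65 with saline (SD, n = 3 each), a ratio of means of 27.6, or 10.99 without TIS sEV replicate 2. On the log2(level + 1) scale the difference was 4.32, and 3.44 without that library, while the median of all genes tested differed by -0.28. Values varied by 10.1-fold among the TIS sEV libraries and by 5.09-fold among the saline libraries. In bulk RNA, more antibody-producing cells and more antibody mRNA per cell cannot be told apart.

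All 3 TIS sEV libraries lay above all 3 saline libraries for 7 of the 10 genes, the exceptions being Iglc2, Iglc3 and Ighg2c. Over all 12958 genes tested, 5.54% showed this order, and 5 of the 6 members among them did. Since the members were chosen on this contrast, nothing is read from the comparison. Of the 10 genes, 6 reached 1 scaled TPM in at least 3 libraries and entered the fit across genes (Igkc, Iglc2, Ighm, Ighg1, Igha and Jchain). In that limma fit no gene passed an adjusted p of 0.05 between TIS sEV and saline (0% of 12958). For the members, which were chosen on this contrast, nothing is read from the fit. The SE beside a member's log2 difference below comes from that fit. Its spread is pooled over the groups and drawn partly from other genes, and it is no test of the members. Before adjustment, 1836 genes had a p under 0.05, and the lowest p after adjustment was 0.0877. Leaving out TIS sEV replicate 1 or TIS sEV replicate 2 gave 2 genes each, and leaving out saline replicate 2 gave 1. With the deposited TPM unscaled, 69 genes passed. In the fit on scaled TPM, 2 genes (0.0154%) were lower with Cont sEV than with saline and 2 genes (0.0154%) were higher with TIS sEV than with Cont sEV. These were the pseudogenes Rpl35a-ps3 and Rpl35a-ps6 in both comparisons, and none was a member.

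**Figure D1:**
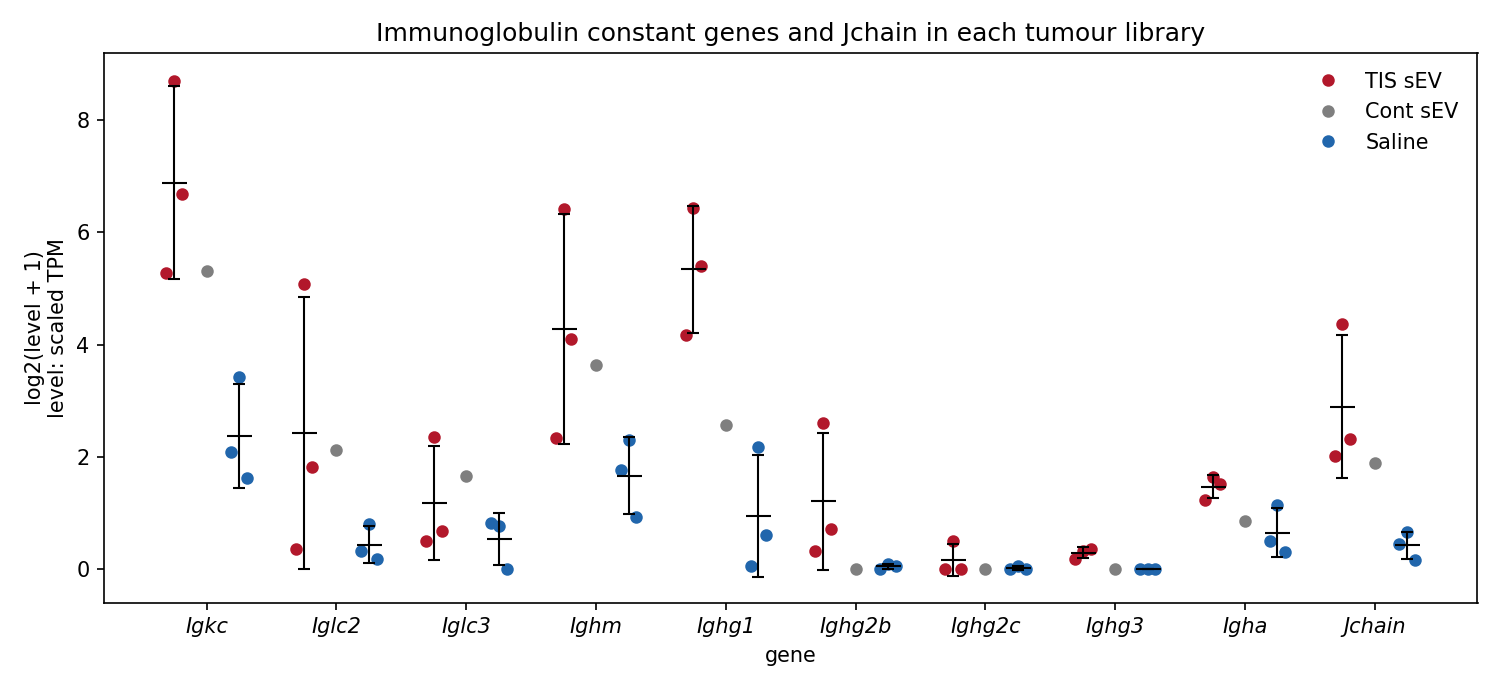
Level of each of the 10 genes in each library, on a log2(level + 1) axis in scaled TPM. Points are libraries (3 TIS sEV, 1 Cont sEV, 3 saline), and horizontal marks with bars are the mean ± SD of 3 libraries. Igkc, Ighg1, Ighm and Jchain of the TIS sEV libraries lie above the saline libraries, and Iglc2 and Iglc3 overlap.

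Igkc encodes the kappa constant region (chr6:70726435-70726966, plus strand, GRCm38) and was the most abundant of the 10 genes in every library. It stood at 37.7, 413 and 102 scaled TPM with TIS sEV, 38.7 with Cont sEV and 3.23, 9.66 and 2.06 with saline. The groups of 3 did not overlap, and the Cont sEV library was close to the lowest TIS sEV library. The mean was 184 ± 201 with TIS sEV and 4.98 ± 4.09 with saline (SD, n = 3 each). The log2 difference of TIS sEV from saline was 4.51 (SE 0.84), and 3.61 without TIS sEV replicate 2. The Cont sEV library differed from saline by 2.94 (SE 1.19), where the error is borrowed from the other groups because the group holds 1 library.

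The lambda constant genes lie together on chromosome 16, and Iglc2 and Iglc3 are close copies. In GENCODE transcripts of GRCm38, the coding parts of Iglc2 and Iglc3 were 96.5% identical, with 11 mismatched bases, and those of Iglc2 and Iglc1 were 74.8% identical. Of the 31-base words of Iglc3, 59.2% occurred in no other gene, against 80.4% for Iglc2 and 100% for Igkc, so the quantification could move reads between Iglc2 and Iglc3. The first 120 bases of each constant exon are shown because they carry this difference. Capitals in Iglc2 and Iglc3 mark the 7 bases at which these genes differ, and capitals in Iglc1 mark the 28 bases at which it differs from Iglc2.
Iglc2 (chr16:19198733-19198852, minus strand): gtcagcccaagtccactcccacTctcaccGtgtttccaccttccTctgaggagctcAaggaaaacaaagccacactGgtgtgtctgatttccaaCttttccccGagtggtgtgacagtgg
Iglc3 (chr16:19065562-19065681, minus strand): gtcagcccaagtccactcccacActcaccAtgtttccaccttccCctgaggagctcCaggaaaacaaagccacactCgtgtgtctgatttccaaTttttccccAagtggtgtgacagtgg
Iglc1 (chr16:19061952-19062071, minus strand): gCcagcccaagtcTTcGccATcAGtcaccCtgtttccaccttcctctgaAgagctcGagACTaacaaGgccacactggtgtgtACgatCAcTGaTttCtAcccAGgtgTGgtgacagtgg

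Iglc2 stood at 0.273, 32.9 and 2.52 scaled TPM with TIS sEV, 3.34 with Cont sEV and 0.248, 0.750 and 0.130 with saline. Only TIS sEV replicate 2 was far above the rest, TIS sEV replicate 1 lay inside the saline range, and the log2 difference of 1.98 (SE 1.05) was 0.65 without replicate 2. Iglc3 stood at 0.419, 4.10 and 0.605 with TIS sEV, 2.14 with Cont sEV and 0.761 and 0.710 in saline replicates 1 and 2, and was listed at 0 in saline replicate 3. For Iglc3 the TIS sEV and saline ranges overlapped, and the Cont sEV library was above all but 1 TIS sEV library. Iglc1, a lambda gene outside the 10, stood at 0.277, 16.3 and 0.601 with TIS sEV, 2.38 with Cont sEV and 1.53 in saline replicate 2, and was listed at 0 in the other saline libraries. Its log2 difference of TIS sEV from saline, 1.27 (SE 0.95), did not pass the limma test (adjusted p = 0.476). Iglc4 was listed at 0 in all 7 libraries.

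Kappa made up 98.2%, 91.8% and 97.0% of light chain TPM (Igkc, Iglc2 and Iglc3) in the TIS sEV libraries. It made up 87.6% in the Cont sEV library and 76.2%, 86.9% and 94.0% in the saline libraries. The TIS sEV and saline ranges overlapped, as the highest saline share was above that of TIS sEV replicate 2. The mean share was 95.7% ± 3.42 with TIS sEV and 85.7% ± 8.99 with saline (SD, n = 3 each). With Iglc1 counted as a light chain, an alternative chosen after seeing the data, kappa shares were 97.5%, 88.6% and 96.5% with TIS sEV, 83.1% with Cont sEV and 76.2%, 76.4% and 94.0% with saline. Lambda mRNA in the saline libraries was low enough (0.750 scaled TPM at most for Iglc2) that its share there rests on small values of unknown read support.

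Among the heavy chains, Ighm, the constant region of IgM (chr12:113418558-113422730, minus strand), stood at 4.03, 84.1 and 16.1 scaled TPM with TIS sEV, 11.4 with Cont sEV and 2.39, 3.93 and 0.904 with saline. The lowest TIS sEV library was barely above the highest saline library. The mean was 34.7 ± 43.1 with TIS sEV and 2.41 ± 1.51 with saline (SD, n = 3 each), and the log2 difference was 2.61 (SE 0.93), or 1.55 without TIS sEV replicate 2.

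Ighg1, the constant region of IgG1 (chr12:113325240-113330523, minus strand), stood at 17.1, 86.1 and 41.5 scaled TPM with TIS sEV, 4.95 with Cont sEV and 0.0379, 3.49 and 0.528 with saline. Every TIS sEV library was above the Cont sEV library and every saline library. The mean was 48.2 ± 35.0 with TIS sEV and 1.35 ± 1.87 with saline (SD, n = 3 each). The log2 difference was 4.40 (SE 0.70) and 3.85 without TIS sEV replicate 2, close to that of Igkc. Against Cont sEV the log2 difference of TIS sEV was 2.77 (SE 0.99) for Ighg1, 1.57 (SE 1.19) for Igkc and 0.65 (SE 1.32) for Ighm.

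The other IgG genes were scarce. Ighg2b stood at 0.241, 5.05 and 0.630 scaled TPM with TIS sEV, was listed at 0 with Cont sEV and in saline replicate 1, and stood at 0.0675 and 0.0383 in saline replicates 2 and 3. Ighg3 stood at 0.128, 0.254 and 0.280 with TIS sEV and was listed at 0 in the Cont sEV library and all 3 saline libraries. Ighg2c reached 0.405 in TIS sEV replicate 2 and 0.0339 in saline replicate 2, and was listed at 0 in the other 5 libraries. The reference genome is that of C57BL/6J mice, which carry Ighg2c where BALB/c mice carry Ighg2a. Ighg2a has no entry in the annotation used, so the low Ighg2c values say nothing about IgG2a, and the alleles of other constant genes may also differ from the reference.

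The IgG genes differ most visibly in the hinge, the flexible stretch whose cysteines join the heavy chains. Their hinge exons are shown because they separate genes that are otherwise alike: the coding parts of Ighg1 and Ighg2b were 78.2% identical, and those of Ighg2b and Ighg2c 86.3%. Capitals mark the in-frame cysteine codons, 4 in Ighg1, 4 in Ighg2b, 3 in Ighg2c and 1 in Ighg3. The exons are 39, 66, 63 and 48 bases long in the same order.
Ighg1 (chr12:113329844-113329882, minus strand): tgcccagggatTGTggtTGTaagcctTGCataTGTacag
Ighg2b (chr12:113307261-113307326, minus strand): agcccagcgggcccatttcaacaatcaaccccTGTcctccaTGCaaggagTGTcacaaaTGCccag
Ighg2c (chr12:113288263-113288325, minus strand): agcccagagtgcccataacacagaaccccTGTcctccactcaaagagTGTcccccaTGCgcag
Ighg3 (chr12:113360529-113360576, minus strand): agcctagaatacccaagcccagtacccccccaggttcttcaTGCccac
Of the 31-base words of Ighg1, 98.3% occurred in no other gene, against 90.7% for Ighg2b and 85.0% for Ighg2c. In the reference, nearly all of Ighg1 is thus distinct from other genes.

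Igha, the constant region of IgA (chr12:113254830-113260236, minus strand), stood at 1.35, 2.12 and 1.87 scaled TPM with TIS sEV, 0.807 with Cont sEV and 0.406, 1.20 and 0.233 with saline. The groups of 3 did not overlap, with a ratio of means of 2.91. The log2 difference was 0.82 (SE 0.29), 0.74 without TIS sEV replicate 2, 1.62 with a pseudocount of 0.1 in place of 1, and 0.43 with the deposited TPM unscaled. Jchain (chr5:88519809-88527891, minus strand) stood at 3.03, 19.5 and 3.96 with TIS sEV, 2.72 with Cont sEV and 0.363, 0.570 and 0.118 with saline. Its log2 difference of TIS sEV from saline was 2.47 (SE 0.59), 1.74 without TIS sEV replicate 2 and 3.95 with a pseudocount of 0.1, with means of 8.84 ± 9.27 and 0.350 ± 0.226 scaled TPM (SD, n = 3 each). Per unit of Ighm and Igha, the chains it links, Jchain stood at 0.563, 0.227 and 0.220 with TIS sEV, 0.223 with Cont sEV and 0.130, 0.111 and 0.103 with saline. Per unit of all heavy chains the TIS sEV and saline ranges overlapped, at 0.0655 to 0.133 and 0.0653 to 0.128.

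The make-up of the heavy chains differed between the groups in IgG1 and IgA. Heavy chain TPM here is the sum of Ighm, Ighg1, Ighg2b, Ighg2c, Ighg3 and Igha. It lacks Ighg2a, which has no entry in the annotation used, so the shares are of the measured genes only. Ighg1 made up 74.8%, 48.4% and 68.7% of heavy chain TPM with TIS sEV, 28.8% with Cont sEV and 1.34%, 40.0% and 30.98% with saline. Every TIS sEV library had a larger IgG1 share than every other library. The mean IgG1 share was 63.9% ± 13.8 with TIS sEV and 24.1% ± 20.2 with saline (SD, n = 3 each).

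Ighm made up 17.6%, 47.2% and 26.7% with TIS sEV, 66.5% with Cont sEV and 84.4%, 45.1% and 53.1% with saline. TIS sEV replicate 2, the library with the most immunoglobulin mRNA, held about as much Ighm as Ighg1 and overlapped the saline range for the Ighm share. The ratio of Ighg1 to Ighm was 4.24, 1.02 and 2.57 with TIS sEV, 0.434 with Cont sEV and 0.0158, 0.888 and 0.584 with saline. In all TIS sEV libraries Ighg1 exceeded Ighm, and in all other libraries it was lower than Ighm.

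Igha made up 5.94%, 1.19% and 3.10% with TIS sEV, 4.70% with Cont sEV and 14.3%, 13.7% and 13.7% with saline. The saline IgA shares were nearly identical, at 13.9% ± 0.342, and the TIS sEV shares averaged 3.41% ± 2.39 (SD, n = 3 each). The saline shares and ratios of all heavy chains rest on small values of unknown read support. Heavy chain genes summed to 2.84, 8.73 and 1.70 scaled TPM there, with Igha at 0.406, 1.20 and 0.233. The heavy chain shares do not depend on how the libraries were scaled, but they were computed from the genes that chose the contrast and carry no test.

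**Figure D2:**
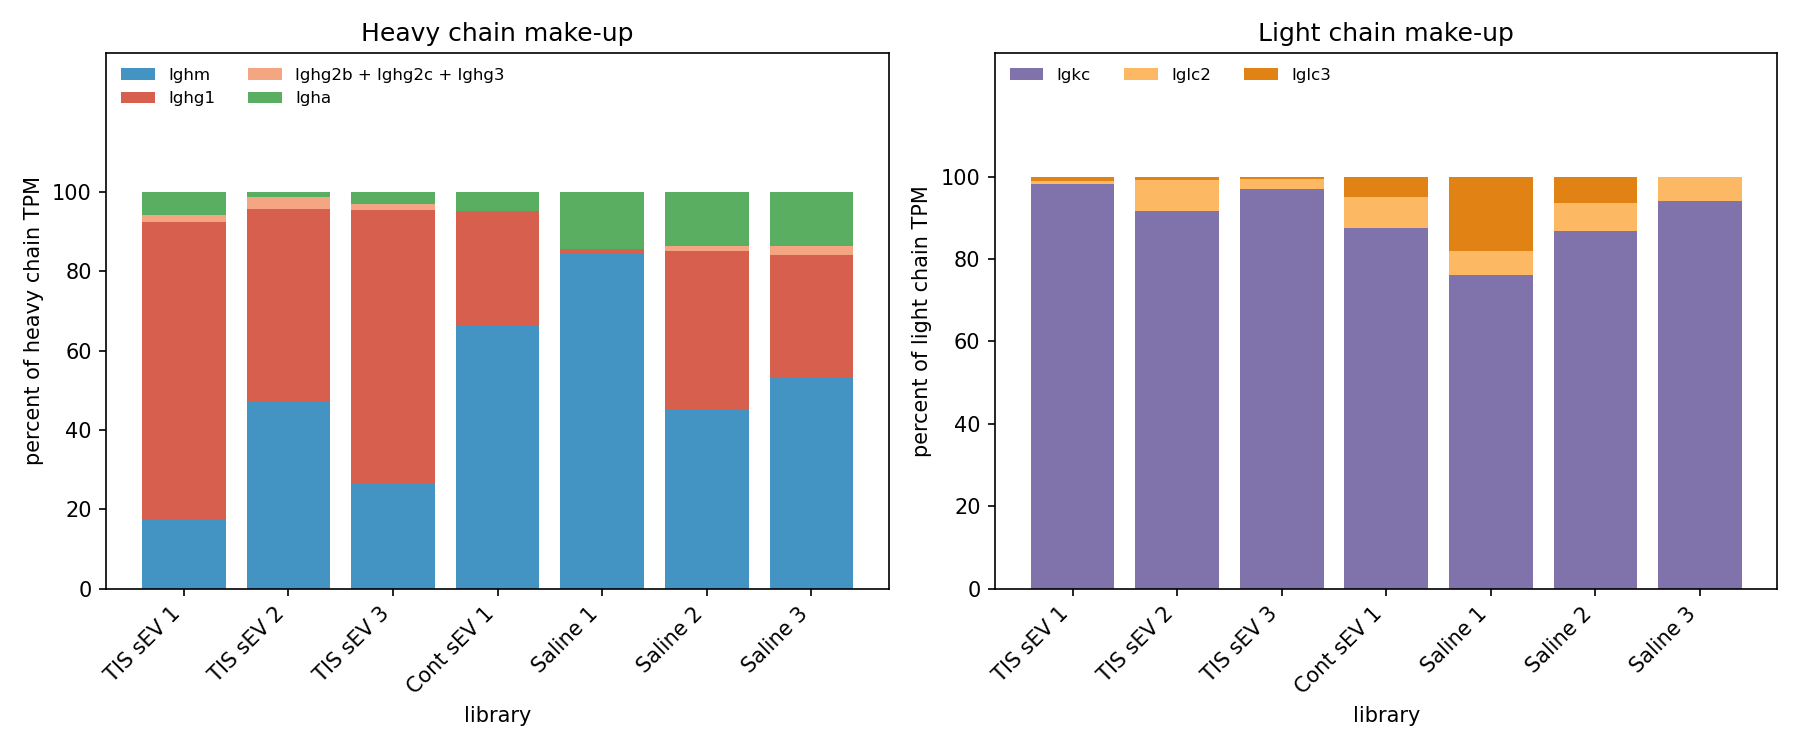
Heavy chain make-up (left) and light chain make-up (right) of each library, as percent of the summed TPM of the heavy or light chain genes among the 10. The Ighg1 part is 48.4% to 74.8% in the TIS sEV libraries, 28.8% in the Cont sEV library and 1.34% to 40.0% in the saline libraries, and Igkc is the largest light chain part in all 7.

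Libraries with like amounts differed in make-up. TIS sEV replicate 1 and the Cont sEV library held about the same amount of immunoglobulin mRNA (64.2 and 64.1 scaled TPM), but the IgG1 share was 74.8% in TIS sEV replicate 1, and in the Cont sEV library, at 28.8%, it lay inside the saline range. The Cont sEV ratio of light to heavy chain TPM, 2.58, was near that of TIS sEV replicate 2. That ratio was 1.68, 2.53 and 1.74 with TIS sEV and 1.49, 1.27 and 1.28 with saline, so the groups of 3 did not overlap. With 1 Cont sEV library, these values describe that tumour and give no spread for its group.

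**Figure D3:**
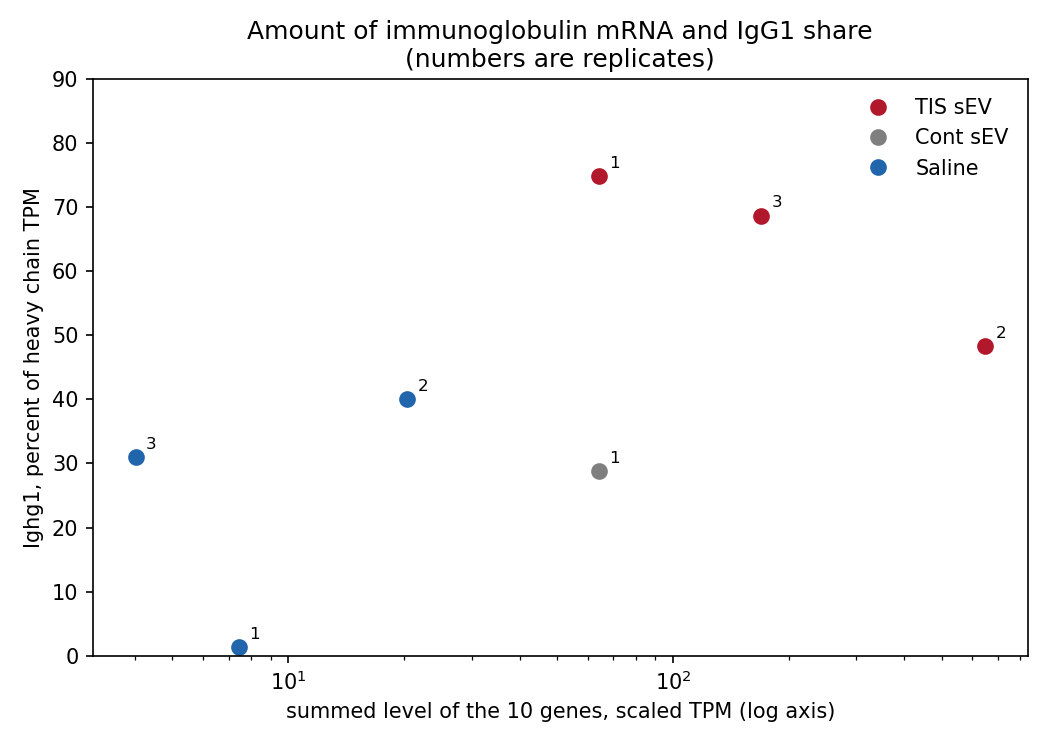
Summed level of the 10 genes (log axis, scaled TPM) against the percent of heavy chain TPM from Ighg1, 1 point per library with the replicate number beside it. TIS sEV replicate 1 and the Cont sEV library sit at nearly the same amount (64.2 and 64.1 scaled TPM), at IgG1 shares of 74.8% and 28.8%.

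Variable segments lie on the same mRNAs as the constant regions and give a second view of them. This view is not independent, since the members were chosen on this contrast. The segment levels are given as a description, with no test. The table held 185 Ighv, 160 Igkv and 3 Iglv segments. Summed Igkv segments stood at 17.1, 86.1 and 15.7 scaled TPM with TIS sEV, 7.89 with Cont sEV and 3.44, 5.14 and 0.192 with saline. Summed Ighv segments stood at 5.39, 19.7 and 2.25 with TIS sEV, 0.529 with Cont sEV and 0.867 and 1.15 in saline replicates 1 and 2, and all were listed at 0 in saline replicate 3. In both families every TIS sEV library was above every other library. For Ighv the Cont sEV library was below saline replicates 1 and 2.

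Few segments were listed above 0 in all 3 TIS sEV libraries. Counting all 3 families, 34, 41 and 27 segments were above 0 with TIS sEV, 14 with Cont sEV and 9, 15 and 1 with saline. Of the 71 segments above 0 in at least 1 TIS sEV library, 7 were above 0 in all 3. TIS sEV replicates 1 and 2 shared 15, replicates 1 and 3 shared 12, and replicates 2 and 3 shared 11. Read depth is unknown, so a segment listed at 0 may have been missed. The overlap that sampling alone would give was not tested. The most abundant kappa segment was Igkv5-43 in TIS sEV replicate 1 (23.1% of the Igkv sum), Igkv8-24 in replicate 2 (12.5%) and Igkv8-30 in replicate 3 (23.1%). These top segments were chosen after their values were seen. Segments are similar to each other and to BALB/c alleles that the reference lacks, so the assignment of reads to single segments is uncertain.

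By mean level over the 7 libraries, the leading segments of each family were Ighv5-4 and Ighv1-18, Igkv8-24 and Igkv10-96, and Iglv2 and Iglv1. Ighv1-18 stood at 4.21 scaled TPM in TIS sEV replicate 2 and was listed at 0 elsewhere. Igkv8-24 stood at 10.8 in TIS sEV replicate 2 and 0.184 in saline replicate 1, and was listed at 0 elsewhere. Igkv10-96 stood at 1.04, 7.08 and 0.223 with TIS sEV, 1.85 with Cont sEV and 0.177 in saline replicate 2. Iglv2, which lies upstream of Iglc2, stood at 12.7 in TIS sEV replicate 2, the library with the highest Iglc2, and was listed at 0 in the other 6. Iglv1, which lies upstream of Iglc3 and Iglc1, stood at 2.50, 2.61 and 1.92 with TIS sEV, 0.958 with Cont sEV and 0.651 and 1.97 in saline replicates 1 and 2, so its groups overlapped. Igkc stood at 2.20, 4.80 and 6.47 times the Igkv sum with TIS sEV, 4.91 times with Cont sEV and 0.938, 1.88 and 10.7 times with saline.

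**Figure D4:**
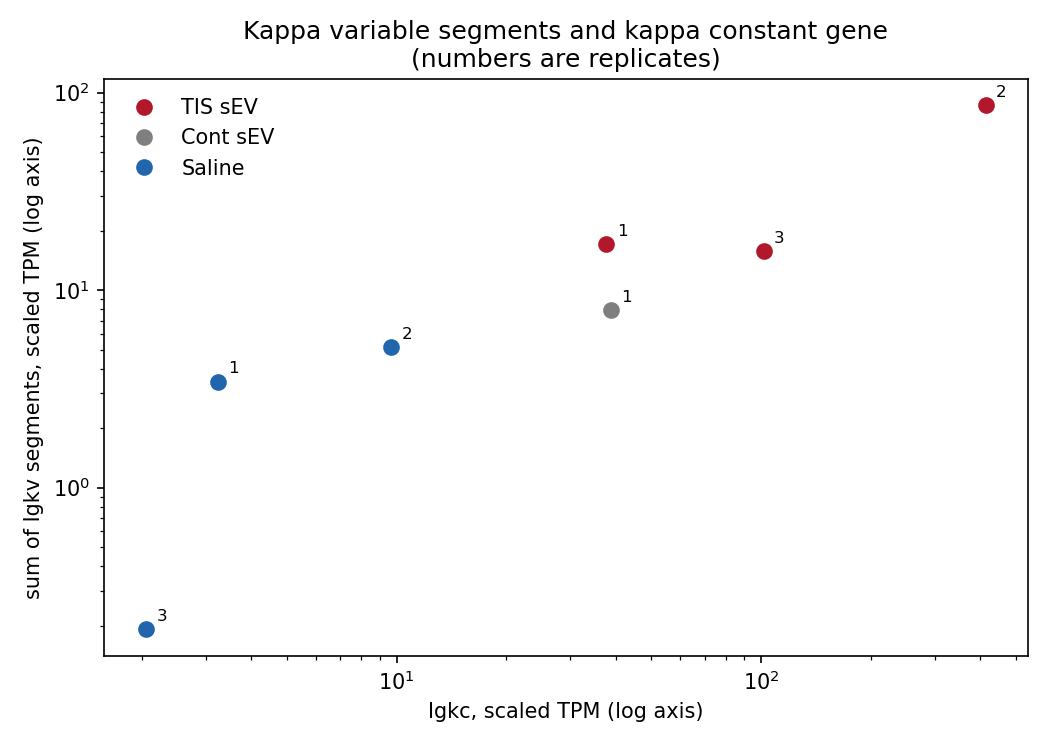
Igkc level against the summed level of the 160 Igkv segments, both on log axes in scaled TPM, 1 point per library with the replicate number beside it. TIS sEV replicate 2 is highest on both axes (413 and 86.1 scaled TPM) and saline replicate 3 lowest (2.06 and 0.192).

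The remaining heavy chain classes were near 0. Ighe, for IgE, stood at 0.220, 0.159 and 0.0710 scaled TPM with TIS sEV, was listed at 0 with Cont sEV and in saline replicates 1 and 2, and stood at 0.0602 in saline replicate 3. Ighd, for the IgD of naive B cells, did not exceed 0.0964 in any library.

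The genes that define B cells were low or listed at 0 in all groups. Of the B cell list, 15 of 20 genes were under 1 scaled TPM in all 7 libraries and Cr2, a complement receptor, was listed at 0 in all. The defining genes Ms4a1 and Pax5, named here after their values were seen, stood at 0.0257 or lower in every library. The summed list stood at 14.6, 24.4 and 23.9 scaled TPM with TIS sEV, 7.17 with Cont sEV and 14.2, 15.7 and 6.72 with saline, and Cd37, which other leukocytes express too, was its most abundant gene. Cd37 (log2 difference 0.64, SE 0.42, limma adjusted p = 0.426), the adaptor Blnk (0.67, SE 0.33, adjusted p = 0.364) and the inhibitory receptor Cd22 (0.32, SE 0.27, adjusted p = 0.515) did not pass between TIS sEV and saline. Vpreb3 stood at 0.851, 2.11 and 1.12 with TIS sEV and 0.0771 in saline replicate 1, was listed at 0 in the other 3 libraries, and was too low to be tested.

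Of 16 plasma cell genes, 9 were tested in the limma fit and 0 passed, with 2 under 0.05 before adjustment. The list summed to 554, 148 and 362 scaled TPM with TIS sEV, 328 with Cont sEV and 412, 388 and 618 with saline. The more specific ones were scarce: Mzb1, a chaperone of antibody assembly, stood at 0.415 and 1.56 in TIS sEV replicates 1 and 3 and was listed at 0 in replicate 2, the library with the most antibody mRNA. It was listed at 0 with Cont sEV and in saline replicate 1 and stood at 0.306 and 0.389 in saline replicates 2 and 3. Tnfrsf17, the survival receptor BCMA, stood at 0.119, 0.593 and 0.264 with TIS sEV, 0.166 with Cont sEV and 0.0499 in saline replicate 2, and was listed at 0 in the other saline libraries. In the low range, Irf4, a transcription factor of plasma cells, stood at 0.349, 0.785 and 0.453 with TIS sEV, 0.265 with Cont sEV and 0.155, 0.218 and 0.0620 with saline. Derl3, a gene of protein quality control in the endoplasmic reticulum, stood at 0.277, 0.296 and 0.185 with TIS sEV, 0.312 with Cont sEV and 0.0943 in saline replicate 3, and was listed at 0 in the other saline libraries. Pou2af1, a transcriptional coactivator of B cells, stood at 0.126, 0.484 and 0.196 with TIS sEV, was listed at 0 with Cont sEV and in saline replicate 1, and stood at 0.0264 and 0.122 in saline replicates 2 and 3. For Tnfrsf17, Irf4, Derl3 and Pou2af1 every TIS sEV library was above every saline library, though barely for Pou2af1, and all 4 were too low to be tested. Mzb1, Prdm1 and Slamf7, also too low to be tested, lacked this order. Slamf7 stood at 0.235, 0 and 0.0892 with TIS sEV and 0.548, 0.285 and 0.122 with saline. Prdm1 stood at 0.445 in TIS sEV replicate 2, below the saline libraries (0.765 to 0.901), while TIS sEV replicates 1 and 3 lay above them. How often other genes this low show the order was not tested.

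Tnfrsf13b, the receptor TACI, stood at 3.14, 5.25 and 3.88 scaled TPM with TIS sEV, 1.11 with Cont sEV and 2.02, 2.12 and 2.05 with saline. Its groups of 3 did not overlap, and its log2 difference of 0.71 (SE 0.26) did not pass (limma adjusted p = 0.353). It was 1 of the 2 genes of the list under 0.05 before adjustment, and the other, Xbp1, was lower with TIS sEV. Mzb1, Tnfrsf17, Irf4, Derl3, Pou2af1, Prdm1, Slamf7 and Tnfrsf13b were named after their values were seen.

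The 4 most abundant genes of the plasma cell list, Sdc1, Xbp1, Txndc5 and Fkbp11, are also expressed by epithelial and other secretory cells. Sdc1, the surface proteoglycan CD138, stood at 247, 29.2 and 101 scaled TPM with TIS sEV, 125 with Cont sEV and 155, 116 and 327 with saline. Xbp1, a transcription factor of secretory cells, stood at 84.8, 51.9 and 99.2 with TIS sEV, 58.7 with Cont sEV and 120, 134 and 118 with saline (log2 difference of TIS sEV from saline -0.70, SE 0.26, limma adjusted p = 0.353). All 4 were lowest in TIS sEV replicate 2, where Igkc was highest.

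**Figure D5:**
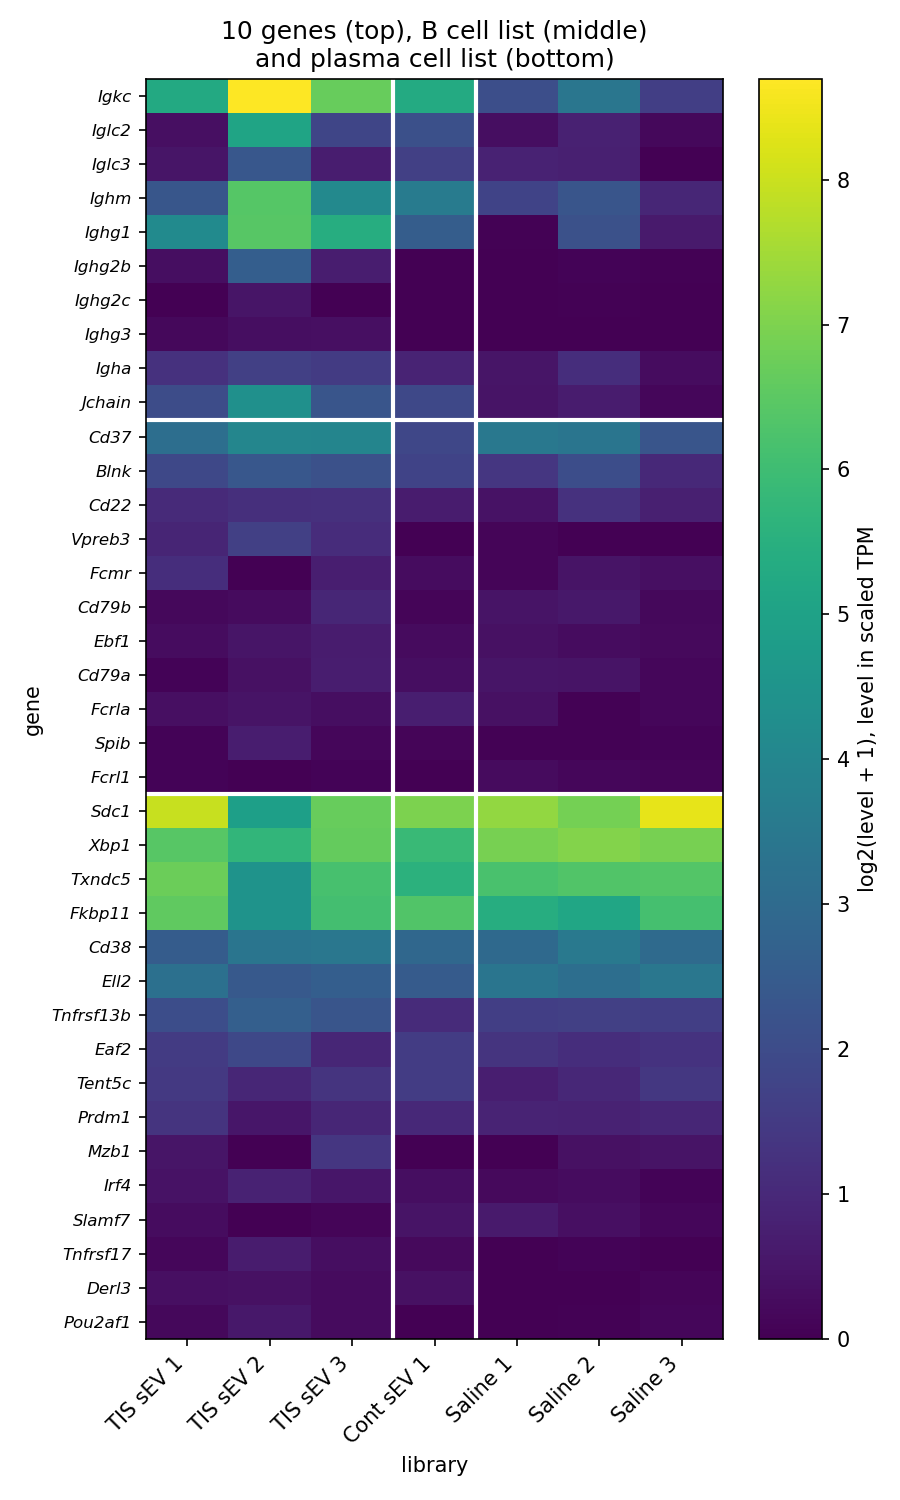
Level of the 10 genes (top block), and of the B cell list (middle block) and plasma cell list (bottom block) in each library, coloured by log2(level + 1) in scaled TPM. List genes are drawn where at least 1 library reaches 0.1 scaled TPM, and white lines separate the blocks and the groups. Igkc reaches 413 scaled TPM in TIS sEV replicate 2, while the highest value of the B cell block is 14.9 (Cd37).

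Genes that make, switch and receive antibodies were examined as lists, and over all 17 lists 88 of 165 genes were tested. None of the 88 passed between TIS sEV and saline in the limma fit, where the smallest adjusted p among them was 0.353 and 9 were under 0.05 before adjustment. The background was 0% of 12958 genes. Of 16 genes for protein folding and secretion in the endoplasmic reticulum, all tested, the median log2 difference was -0.57. The most abundant were the chaperones Hspa5 (-1.08, SE 0.61, adjusted p = 0.388) and Hsp90b1 (-1.04, SE 0.52, adjusted p = 0.364), the translocon subunit Sec61b (0.02, SE 0.20, adjusted p = 0.962) and the disulfide isomerase Pdia6 (-0.93, SE 0.57, adjusted p = 0.412).

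Of 10 genes of class switching and the germinal centre, where B cells are selected, 6 were tested. Rgs13, a germinal centre gene, was listed at 0 in all 7 libraries. Among the list's most abundant genes were the DNA repair genes Msh6 and Exo1 and the repressor Bcl6, which are used by dividing or other cells as well. None of the 6 genes tested passed in the limma fit, and their median log2 difference of TIS sEV from saline was -0.56.

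Of 10 genes for Fc receptors and antibody transport, 7 were tested, with a median log2 difference of 0.24. Fcgrt, the neonatal Fc receptor that protects IgG from breakdown, stood at 66.5, 187 and 130 scaled TPM with TIS sEV, 38.3 with Cont sEV and 41.3, 87.1 and 37.6 with saline. Its groups overlapped, and its log2 difference of 1.18 (SE 0.45) did not pass (limma adjusted p = 0.353). Fcer1g, the shared signalling chain of Fc receptors, differed by 0.48 (SE 0.22, adjusted p = 0.358), the activating receptor Fcgr3 by 0.24 (SE 0.23, adjusted p = 0.574) and the inhibitory receptor Fcgr2b by 0.32 (SE 0.37, adjusted p = 0.621).

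Of 12 factors that attract B and plasma cells or keep them alive, 5 were tested. Tnfsf13b, the survival factor BAFF, stood at 56.7, 18.1 and 48.5 scaled TPM with TIS sEV, 64.6 with Cont sEV and 38.2, 16.2 and 64.9 with saline. Tnfsf13, the factor APRIL, stood at 7.30, 25.1 and 15.3 with TIS sEV, 11.3 with Cont sEV and 9.40, 10.98 and 13.8 with saline. Both overlapped between TIS sEV and saline. Il6, a growth factor of plasma cells, stood at 5.31, 1.37 and 4.40 with TIS sEV, 1.19 with Cont sEV and 1.47, 1.46 and 1.18 with saline (log2 difference of TIS sEV from saline 0.87, SE 0.39, limma adjusted p = 0.357).

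In some lists of other tissues a single library stood well above the rest. The adipocyte list (6 genes, 1 tested) summed to 0.435, 153 and 1.19 scaled TPM with TIS sEV, 12.1 with Cont sEV and 0.808, 1.29 and 3.49 with saline, with Cfd at 132 in TIS sEV replicate 2. The list of lymph node stroma (9 of 10 genes in the table, none high enough to be tested) summed to 0.879, 11.7 and 0.213 with TIS sEV, 1.67 with Cont sEV and 1.49, 0.103 and 0.594 with saline. The highest value was again TIS sEV replicate 2, where Ccl19 stood at 3.55, Cd209b at 3.15, Cxcl13 at 1.94, Clec4g at 1.78 and Glycam1 at 1.26. Ccl21a, Madcam1 and Chst4 were listed at 0 in that library, and Coch was listed at 0 in all 7. The milk gene list summed to 0 to 6.40 with TIS sEV, 51.7 with Cont sEV and 0.318 to 1.15 with saline. The muscle list summed to 5.32 to 10.4 with TIS sEV, 14.7 with Cont sEV and 5.75 to 80.4 with saline. Other lists were not set by 1 library. The keratinocyte and hair follicle list summed to 188, 138 and 93.9 with TIS sEV, 144 with Cont sEV and 88.3, 86.8 and 65.0 with saline. Its groups of 3 did not overlap, and none of its 5 tested genes passed in the limma fit. The erythroid list summed to 41.2, 284 and 330 with TIS sEV, 116 with Cont sEV and 161, 499 and 209 with saline. The library with the highest sums of the adipocyte and lymph node stroma lists was thus the one with the most antibody mRNA. Part of the stroma list was listed at 0 there, and the part of these tissues in the result was not tested. Without TIS sEV replicate 2 the summed level of the 10 genes averaged 117 scaled TPM with TIS sEV, a ratio of 10.99 to saline.

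Tested genes were ranked by likeness to the summed level of the 10 genes. Immunoglobulin genes and Jchain were left out, as were genes without a symbol or with predicted, clone or pseudogene names. Among the rest, Cox7a1 had the most similar pattern, with a Pearson r of 0.993 on the log2 scale over the 7 libraries. Cox7a1, a subunit of mitochondrial cytochrome c oxidase, stood at 11.8, 29.4 and 19.3 scaled TPM with TIS sEV, 13.9 with Cont sEV and 6.29, 9.36 and 5.84 with saline. It was followed by Arhgap9 (0.979), Dusp22 (0.975), Nlk (0.969), Izumo4 (0.969), Gypc (0.967), Blvrb (0.965) and Dusp23 (0.963). These are the highest of the genes ranked over only 7 libraries, of which TIS sEV replicate 2 is far from the rest. They are given as a description. Their spread differed: Dusp23 ranged over 1.34 to 5.37 scaled TPM with TIS sEV, 1.27 with Cont sEV and 0.319 to 1.18 with saline. Nlk, a kinase, ranged over 9.97 to 12.2 scaled TPM with TIS sEV, 9.53 with Cont sEV and 7.22 to 7.91 with saline.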

How the data were processed

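Total RNA of primary tumour was measured in 7 libraries. The authors deposited 1 table of TPM values with 55487 gene entries, each library summing to 1000000. Salmon 1.4.0, DESeq2 1.28.0, Trim Galore 0.6.6 and FastQC 0.11.9 are listed, without their roles, per the submitters' processing notes, as is build GRCm38.p6. The annotation they used is not given in the sources used here. The vesicle columns carry the abbreviations CE and NcE, read as Cont sEV and TIS sEV (nocodazole), which the labels do not spell out. All comparisons rest on that reading.

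Symbols, coordinates and sequences came from GENCODE M21 of GRCm38, and 55141 entries were matched with the version dropped. Each TPM was divided by the library's sum over 21884 nuclear protein-coding genes and multiplied by 1000000. The 12958 genes at 1 or more in at least 3 of 7 libraries were tested with limma 3.58.1 (R 4.3.3) on log2(level + 1), with 1 mean per group, the intensity trend, two-sided tests, Benjamini-Hochberg adjustment over all genes and a threshold of 0.05. The lone Cont sEV library was assumed to vary like the others. On this scale, changes of low genes appear smaller than they are. The fit was tested on simulated data. Alternatives were unscaled TPM, size factors, quantile normalization, a pseudocount of 0.1, no filter, no trend, a replicate block and leaving out each library.

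The members and all 17 gene lists were chosen with earlier results of these data known. The text names the 10 members, the other constant genes, the 4 genes of highest mean in the lists on antibody making and reception (summed levels stand in for other lists), the 2 leading segments per family and the 8 genes most like the summed level. Those 8 were ranked without immunoglobulin genes and without genes that lack a symbol or have predicted, clone or pseudogene names. Some genes of these lists are not reported here. Read depth is unknown, so no counting interval is given.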

Additional observations from a re-analysis of the deposited data

How the results depend on the processing

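The summed level of the 10 genes kept its direction in every alternative run, at 3.78 to 4.50 (log2) with other scalings, pseudocounts or the replicate block and at 3.44 to 5.10 when 1 library was left out. Counts of genes passing depended on the processing. Between TIS sEV and saline, 0 genes passed in the scaled fit, 69 with TPM as deposited (47 higher and 22 lower), 1 with a pseudocount of 0.1, and 0 to 2 when 1 library was left out; with size factors, quantile normalization, no filter or no trend the count was 0. Between Cont sEV and saline, 2 passed, both lower, against 34 with TPM as deposited (25 higher and 9 lower), 186 with no filter (179 higher and 7 lower), 1 with size factors, 1 with no trend and 1 to 3 when 1 library was left out. Between TIS sEV and Cont sEV, 2 passed, both higher, against 29 with TPM as deposited (16 higher and 13 lower), 184 with no filter (5 higher and 179 lower), 1 with size factors, quantile normalization, a pseudocount of 0.1 or no trend, and 1 to 2 when 1 library was left out. The cause of these shifts was not tested. Genes of the 17 lists passed in none of the 14 alternatives.

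Same-numbered TIS sEV and saline libraries did not deviate together (r of deviations -0.34, -0.0088 and 0.054 for numbers 1, 2 and 3). With 3 libraries per group this cannot decide whether the numbers pair the samples, and the labels do not say. The scaled fit treated the libraries as unpaired. With a replicate block 7 genes passed between TIS sEV and saline, 1 between Cont sEV and saline and 1 between TIS sEV and Cont sEV, and the summed level differed by 4.32.

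A pseudocount of 0.1 moved the log2 difference of TIS sEV from saline to 5.86 for Ighg1, 3.95 for Jchain and 3.04 for Ighg2b. It moved the difference to 1.65 for Ighg3, 1.62 for Igha, 1.49 for Iglc3 and 0.64 for Ighg2c. All were larger than with a pseudocount of 1. With 1, Ighg2b was at 1.15 and Iglc3 at 0.65, and without TIS sEV replicate 2 they were at 0.46 and 0.063. Igha was at 0.43 with TPM as deposited, and Ighg3, at 0.29 in scaled TPM, was at 0.15 with TPM as deposited, 0.20 with size factors and 0.40 with quantile normalization.

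Directions turned for low or flat genes in the difference of TIS sEV from saline. Ighg2c was at -0.016 without TIS sEV replicate 2 (-0.016 to 0.23 when 1 library was left out). Fcgr2b was at -0.14 and Fcgr3 at -0.23 with TPM as deposited, and Fcgr2b at -0.077 without saline replicate 1 (up to 0.71 without saline replicate 2). Fkbp11 was at -0.28 with TPM as deposited and -0.28, -0.044 and -0.064 without TIS sEV replicate 1, TIS sEV replicate 3 or saline replicate 2 (up to 0.77 without TIS sEV replicate 2). Txndc5 was at 0.15 without TIS sEV replicate 2 (down to -0.996 without TIS sEV replicate 1). Without Cont sEV replicate 1, TIS sEV against saline is the only comparison that can be fitted. With Iglc1 added, the mean kappa share with TIS sEV exceeded that with saline by 12.0 percentage points, against 9.96, an alternative chosen after seeing the data.

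The 1 Cont sEV library, unknown depth, the C57BL/6J reference and the near-identical Iglc2 and Iglc3 limit the values above. The read support of levels under 1 scaled TPM is not known.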
